A study of Mus musculus with 7 samples.

Results

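Cycling progenitors without ventral marks were cell barcodes with RNA of dividing cells and without RNA of the ventral, GABAergic lineage. They were chosen on raw UMIs (unique molecular identifiers, each counting 1 captured transcript). Barcodes were kept when 500 or more genes were detected and mitochondrial UMIs made up 10% or less. A kept barcode was counted as a cycling barcode if Top2a, Mki67, Cenpe, Tpx2, Ccna2 and Kif11 summed to at least 3 UMIs and Dlx1, Dlx2, Dlx5, Dlx6os1, Gad1 and Gad2 summed to 0. This gave 1197 of 23005 kept barcodes (5.20%), 666 in mutant and 531 in control embryos, and the remaining 21808 are called the other barcodes. All tables together held 50191 barcodes.

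Cortices of 7 embryos of 1 litter were profiled with Seq-Well, a method that captures single cells on barcoded beads in small wells. The 4 mutants (replicates 10, 11, 12 and 17) were Emx1CreERT2;Ash1lfl/fl: their Ash1l alleles were floxed and a tamoxifen-dependent Cre was present under Emx1, a gene of dorsal cortical progenitors. The 3 controls (replicates 14, 15 and 16) were Ash1lfl/fl without the Cre. Mutants and controls shared the floxed alleles, the dam and its dose of tamoxifen (100 mg/kg at e10.5), and were collected at e18.5. The Cre acts only in cells that use Emx1 and their descendants, and the labels do not give the deleted exons, the sex or any library batch. The comparison addresses what loss of Ash1l, a histone H3 lysine 36 methyltransferase, does in the embryonic cortex.

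In the embryonic cortex, radial glia divide beside the ventricle, renew themselves and give rise to intermediate progenitors, which divide again and become glutamatergic neurons. Late in gestation the remaining radial glia turn to making astrocytes and oligodendrocyte precursors. Dividing cells switch on genes in waves: E2F factors act on DNA replication genes before S phase, and complexes built on the MuvB core act on mitotic genes in G2, through the element known as CHR and often beside CCAAT boxes bound by NF-Y.

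The cycle genes of the rule encode machinery of chromosome separation. Top2a is the topoisomerase that untangles DNA, Mki67 coats mitotic chromosomes, Cenpe and Kif11 are motor proteins of the kinetochore and the spindle, Tpx2 assembles the spindle and Ccna2 is cyclin A2. Their promoters are shown because they were the genes that chose the barcodes, and the promoter of Rrm1, a ribonucleotide reductase subunit that makes DNA precursors, is shown beside them as a replication gene (the S phase gene with the highest level among those whose promoter held the E2F letters). Sequences are from RefSeq (build GRCm38.p6), 250 bases before to 50 bases after the start of the gene, 5′ to 3′ on the strand of the gene. The table matched 4 of the 6 genes, Tpx2 and Ccna2 having no entry. Capitals mark TTTGAA (CHR), CCAAT and, in Rrm1, TTCCCGC (E2F). Each was searched on both strands, and a match on the opposite strand reads as the reverse complement of these letters. No matches overlapped in these promoters.
Top2a (chr11:99024140-99024439, minus strand): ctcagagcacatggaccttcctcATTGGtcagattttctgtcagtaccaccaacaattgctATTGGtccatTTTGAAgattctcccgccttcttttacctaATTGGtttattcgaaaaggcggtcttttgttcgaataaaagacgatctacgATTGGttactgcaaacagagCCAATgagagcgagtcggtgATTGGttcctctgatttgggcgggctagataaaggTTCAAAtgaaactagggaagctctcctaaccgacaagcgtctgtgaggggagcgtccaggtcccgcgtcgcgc
Mki67 (chr7:135716330-135716629, minus strand): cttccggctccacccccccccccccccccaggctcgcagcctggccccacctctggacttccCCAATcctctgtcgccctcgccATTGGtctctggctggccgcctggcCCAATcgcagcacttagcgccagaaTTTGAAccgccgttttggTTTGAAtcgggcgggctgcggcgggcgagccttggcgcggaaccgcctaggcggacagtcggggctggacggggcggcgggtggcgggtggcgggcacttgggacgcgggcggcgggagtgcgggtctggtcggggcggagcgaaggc
Kif11 (chr19:37376132-37376431, plus strand): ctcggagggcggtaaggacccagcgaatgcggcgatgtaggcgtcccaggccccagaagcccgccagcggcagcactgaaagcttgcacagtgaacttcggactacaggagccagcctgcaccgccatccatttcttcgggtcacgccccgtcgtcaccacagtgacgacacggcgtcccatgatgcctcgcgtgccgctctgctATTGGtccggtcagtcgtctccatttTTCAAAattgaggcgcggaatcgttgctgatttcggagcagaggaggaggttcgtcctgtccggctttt
Cenpe (chr3:135212313-135212612, plus strand): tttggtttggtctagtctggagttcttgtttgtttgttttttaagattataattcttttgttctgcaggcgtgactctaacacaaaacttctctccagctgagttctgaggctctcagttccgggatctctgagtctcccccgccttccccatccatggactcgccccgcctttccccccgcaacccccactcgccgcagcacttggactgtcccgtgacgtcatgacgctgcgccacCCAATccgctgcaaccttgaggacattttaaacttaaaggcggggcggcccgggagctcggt
Rrm1 (chr7:102441445-102441744, plus strand): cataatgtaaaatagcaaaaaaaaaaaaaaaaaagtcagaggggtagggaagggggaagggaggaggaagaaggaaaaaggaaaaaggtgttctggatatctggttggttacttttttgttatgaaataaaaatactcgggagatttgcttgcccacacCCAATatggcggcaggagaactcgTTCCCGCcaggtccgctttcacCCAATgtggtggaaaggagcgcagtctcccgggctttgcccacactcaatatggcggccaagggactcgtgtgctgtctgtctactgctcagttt

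The Top2a promoter held 2 CHR letter matches and 6 CCAAT matches, that of Mki67 2 and 3, that of Kif11 1 and 1, and that of Cenpe 0 and 1. Rrm1 held 2 CCAAT matches and 1 E2F match and no CHR match. Of the promoters of 27025 genes, 20.2% held TTTGAA. Among G2 and M phase genes with an entry it was 30 of 43 (69.8%), and among S phase genes 6 of 32 (18.8%). The E2F letters were in 5.29% of all promoters, in 1 of 43 G2 and M phase promoters (2.33%) and in 16 of 32 S phase promoters (50%). CCAAT was in 41.1% of all promoters, 74.4% of the G2 and M phase ones and 71.9% of the S phase ones. CHR and CCAAT letters together were in 55.8% of G2 and M phase promoters, 12.5% of S phase promoters and 8.97% of all. A letter match is a description of the window and not a bound site.

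The values that chose the barcodes are given as a description. Mki67 had at least 1 UMI in 76.4% to 84.1% of cycling barcodes per embryo, against 3.39% to 6.36% of other barcodes, and Top2a in 73.9% to 81.2%, against 2.61% to 6.28%. Tpx2 was detected in 51.2% to 61.4% of cycling barcodes, Ccna2 in 36.2% to 54.1%, Kif11 in 37.7% to 52.4% and Cenpe in 27.9% to 49.0%. The median cycling barcode had 5 to 8 UMIs of the 6 genes, depending on the embryo, and 411 barcodes had 10 or more. Just inside the limit stood 259 barcodes with 3 cycle UMIs, and just outside it 511 with 2 and no ventral UMI. Of the 1619 kept barcodes with at least 3 cycle UMIs, 179 were left out for a single ventral UMI and 243 for 2 or more.

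Library totals were 7083225 to 11859209 UMIs. The cycling barcodes of an embryo summed to 362933 to 585034 UMIs, 3280607 in all. Their median depth was 2360, 1672.5, 1415.5 and 1731 UMIs in mutants 10, 11, 12 and 17, against 3279.5, 1568 and 2188 in controls 14, 15 and 16. The groups overlapped, and the difference of means was within the spread (1795 ± 401 UMIs in mutants against 2345 ± 867 UMIs in controls, SD over 4 and 3 embryos; two-sided exact permutation p = 0.457). In each embryo the other barcodes were shallower, with medians of 1229 to 1684 UMIs in mutants and 1335 to 2095 in controls. With 35 splits of the embryos the two-sided exact permutation test cannot go below p = 0.0571, so no comparison of single values here could have passed 0.05. Doublets were not removed: 187 cycling barcodes had more than 3 times the median UMIs of their library, 11.2% to 19.9% of cycling barcodes per embryo against 5.28% to 12.2% of other barcodes. Pairs of libraries shared 2 to 6 kept barcode sequences (78 over 21 pairs), none of them a cycling barcode in both (0 shared).

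The share of cycling barcodes was close in the 2 genotypes. It was 6.67%, 5.39%, 5.12% and 4.53% of kept barcodes in mutants 10, 11, 12 and 17, against 4.72%, 5.85% and 4.64% in controls 14, 15 and 16. The highest and the lowest share were both in mutants, and the groups overlapped. The means were 5.43% ± 0.903 for mutants against 5.07% ± 0.677 for controls (SD over 4 and 3 embryos; two-sided exact permutation p = 0.686), a difference of 0.35 percentage points that turned to -0.0598 without mutant 10. Kept barcodes of at least 1000 UMIs were also thinned to 1000 UMIs, and shallower ones were left out. This left 1688, 2073, 2505 and 2578 barcodes in mutants and 1879, 2705 and 3170 in controls. Among them the shares were 5.51%, 5.16%, 4.31% and 3.14% in mutants and 3.41%, 4.99% and 3.69% in controls.

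**Figure D1:**
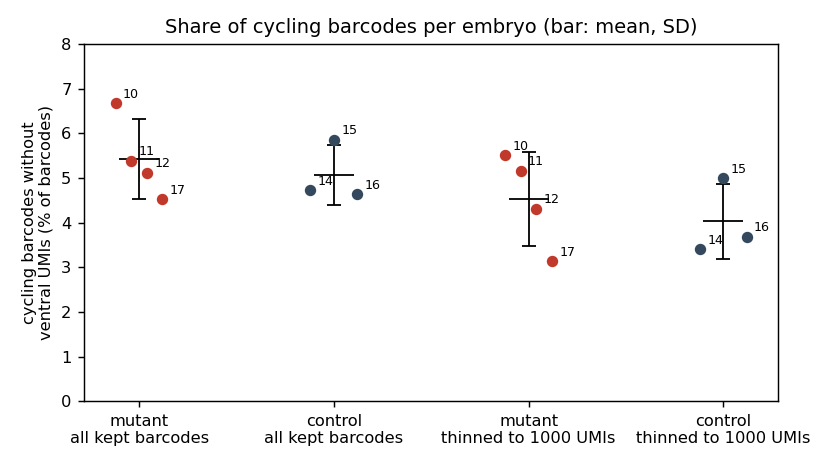
Share of kept barcodes that were cycling barcodes without ventral UMIs (percent, y axis) in each mutant (red) and control (blue-grey) embryo. Values are as deposited and after thinning to 1000 UMIs, which left out barcodes below that depth. Numbers are replicates, bars the mean and SD. Mutants spread from 4.53% to 6.67% and controls from 4.64% to 5.85%, so the groups overlap.

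Cycling barcodes were rich in the wider set of division genes. Levels here are CPM (UMIs of a gene scaled to a common total per set of summed barcodes), and folds are medians over the 7 embryos of the CPM ratio with 1 CPM added. Since the rule chose the barcodes on counts of the same cells, these ratios are a description without a test. Of 8506 genes over 20 CPM in either kind of barcode, 510 (6%) were at least 2-fold higher in cycling barcodes in all 7 embryos and 63 (0.741%) at least 2-fold lower. For genes outside the rule the largest ratio was that of Aurkb, the kinase that corrects chromosome attachment, with 145 ± 28.3 CPM in cycling barcodes and 6.07 ± 1.49 CPM in other barcodes (SD, n = 7; 21.3-fold). It was followed by the condensin subunit Ncapg (20.2-fold), the kinase Melk and Cdk1, the kinase that drives entry into mitosis (264 ± 39.6 and 12.9 ± 2.44 CPM; 19.4-fold). The 20 highest also held Prc1 and Kif20a of the central spindle, the mitotic cyclins Ccnb1 and Ccnb2, Cdc25c, which activates Cdk1, and Aspm, a spindle pole protein whose loss causes microcephaly in humans (344 ± 85.6 and 17.4 ± 4.21 CPM; 17.9-fold). By list, 43 of 49 G2 and M phase genes and 30 of 43 S phase genes over the level were at least 2-fold higher in all 7 embryos.

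Genes of the step before replication were also high. Ccnd2, the D-type cyclin of cortical progenitors, had 937 ± 152 CPM in cycling barcodes and 246 ± 41.5 CPM in other barcodes (3.89-fold), and its kinase partner Cdk6 was 4.47-fold higher. Among the inhibitors of cyclin-dependent kinases, Cdkn2c stood at 140 ± 17.2 CPM in cycling barcodes and 9.53 ± 3.49 CPM in other barcodes (13.8-fold), while Cdkn1b was 1.17-fold higher. Cdkn1c, an inhibitor of cells that leave the cycle, was 2.45-fold lower in cycling barcodes. The linker histone Hist1h1b, made in S phase, was 13.5-fold higher.

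The cells carried a radial glia profile. Of 20 radial glia genes over the level, 18 were at least 2-fold higher in cycling barcodes in all 7 embryos, against 6% of all genes over the level. At least 2 UMIs of the list were present in 91.7% to 95.3% of cycling barcodes, against 50.4% to 67.5% of other barcodes. Pax6, the homeobox factor that defines dorsal radial glia, had 224 ± 47.4 CPM in cycling barcodes and 56.1 ± 8.87 CPM in other barcodes (4.18-fold). Fabp7, a fatty acid binding protein of radial glia, had 4315 ± 710 CPM and 1015 ± 134 CPM (4.13-fold). Vim (4.42-fold), the matrix protein Tnc (4.48-fold), the Notch effectors Hes1 (5.99-fold) and Hes5 (3.72-fold), and Hopx (4.22-fold), a marker of outer radial glia, went the same way in all 7 embryos.

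Intermediate progenitor genes were near the level of the other barcodes, with 0 of 13 at least 2-fold higher in every embryo. That count is near the share of all genes over the level (6%). At least 2 UMIs of the list were in 53.2% to 70.2% of cycling barcodes, against 38.0% to 55.8% of other barcodes. Within embryos this share was higher in cycling barcodes in 7 of 7, also after thinning to 1000 UMIs (30.1% to 40.1% against 25.6% to 31.5%). Eomes was detected in 6.67% to 19.1% of cycling barcodes, against 5.44% to 7.51% of other barcodes. Eomes, the factor that defines these cells, had 91.4 ± 33.1 CPM in cycling barcodes and 60.6 ± 10.2 CPM in other barcodes, and was higher in 6 of 7 embryos. The neuron list was low: its summed level was 0.29 to 0.53 times that of other barcodes, and Dcx, a microtubule protein of young neurons, was 2.47-fold lower in cycling barcodes. Reln, a secreted protein of Cajal-Retzius cells, had 92.7 ± 48.1 CPM in cycling barcodes and 493.5 ± 122 CPM in other barcodes. Still, 63.7% to 78.9% of cycling barcodes held at least 2 UMIs of the 15 neuron genes, against 92.2% to 96.5% of other barcodes. How much of that was RNA from other cells was not tested.

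Some glial genes were high as well. The receptor Egfr, carried by late progenitors that turn to glia, had 131 ± 34.5 CPM in cycling barcodes and 15.7 ± 4.24 CPM in other barcodes (7.96-fold). Olig2 (7.49-fold) and Olig1 (6.65-fold), factors of the oligodendrocyte lineage, were at least 2-fold higher in all 7 embryos. Of the 4 oligodendrocyte precursor genes over the level, only these 2 were, and that list summed to between 1.75 and 4.90 times the level of other barcodes. Of 11 astroglia genes 3 were at least 2-fold higher in all 7 embryos, although the list summed to between 1.99 and 2.62 times the level of other barcodes. Over all genes over the level the share was 6%. Notch signalling genes summed to 1.98 times the level of other barcodes (median), with Notch1 at 199 ± 45.7 CPM in cycling barcodes and 47.4 ± 14.4 CPM in other barcodes. Ash1l itself did not differ in level between the 2 kinds of barcode by more than its spread over embryos: 165 ± 35.7 CPM in cycling barcodes and 170.4 ± 32.6 CPM in other barcodes. Of its relatives and partners in H3K36 methylation 0 of 13 were 2-fold higher in every embryo, and of 22 Polycomb and COMPASS genes 1 was. Both counts are near the share of all genes over the level (6%).

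**Figure D2:**
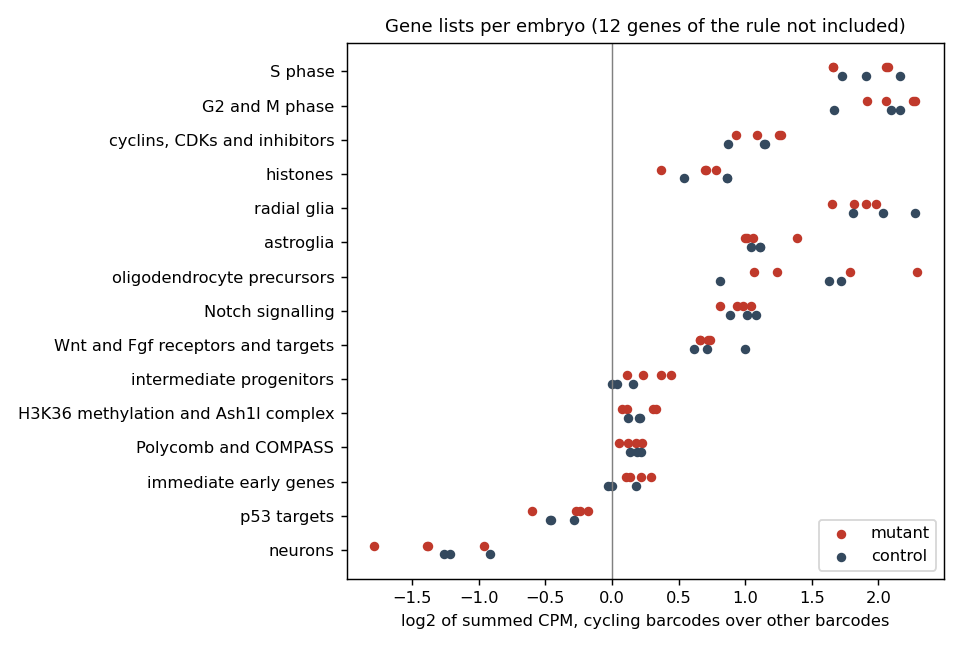
Summed CPM of each gene list in cycling barcodes over that in other barcodes of the same embryo (log2, x axis), 1 point per mutant (red) or control (blue-grey) embryo; the 12 genes of the rule are in no list. S phase, G2 and M phase and radial glia genes lie between 3.14 and 4.84 times the other barcodes, intermediate progenitor genes between 1.00 and 1.36 times, and neuron genes below 1 in all 7 embryos.

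Among themselves the cycling barcodes differed in lineage genes. Eomes was detected in 152 of 1197 (12.7%), Olig2 or Pdgfra without Eomes in 108 (9.02%), and none of the 3 in 937 (78.3%). The first and second kind had similar depth, with medians of 2644 and 2628 UMIs, while the third had 1677. Of barcodes with Eomes, 26.3% held Neurog2, a proneural factor, and 21.1% Neurod1, against 10.2% and 3.70% of those with Olig2 or Pdgfra. Egfr was in 12.5% of barcodes with Eomes, 49.1% of those with Olig2 or Pdgfra and 12.9% of the third kind. Tnc was in 23.0%, 52.8% and 52.8% in the same order, and Hopx in 3.29%, 8.33% and 9.50%. Pax6 was in 41.4%, 26.9% and 34.4%. The kinds were cut by detection of at least 1 UMI and are ranges, not cell types.

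Per embryo, Eomes was detected in 16.3%, 11.2%, 12.6% and 6.67% of cycling barcodes of mutants 10, 11, 12 and 17, against 10.6%, 11.4% and 19.1% in controls 14, 15 and 16 (exact permutation p = 0.571, two-sided). Barcodes with at least 3 ventral UMIs and no cycle UMI, which should lack Eomes, had it in 0% to 4.72%, at median depths of 1466 to 2518 UMIs against 1415.5 to 3279.5 for cycling barcodes. Pax6 was detected in 41.8%, 37.1%, 30.5% and 29.7% of mutant and 41.3%, 35.1% and 31.2% of control cycling barcodes (exact permutation p = 0.857), and in 4.59% to 9.36% of the ventral barcodes. For Olig2 or Pdgfra the shares were 12.8%, 9.41%, 10.0% and 10.9% in mutants and 15.4%, 9.21% and 6.03% in controls (exact permutation p = 0.857). The genotypes overlapped in all 3. Thinned to 1000 UMIs, Eomes was in 4.41% to 8.80% of mutant and 6.45% to 11.0% of control cycling barcodes, and Pax6 in 21.8% to 26.0% of mutant and 14.5% to 23.3% of control ones, over the 125 to 147 mutant and 93 to 172 control barcodes per embryo that reached that depth.

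In all 11 lineage lists the shares of cycling barcodes overlapped between genotypes (at least 2 UMIs of the list; smallest adjusted exact permutation p = 0.864). The exact permutation test could not decide whether any list differed, since its smallest possible p (0.0571, unadjusted) lies above the threshold used here. The largest difference was for the intermediate progenitor list, with 64.5%, 60.0%, 53.2% and 56.4% in mutants and 70.2%, 62.3% and 64.3% in controls (58.5% ± 4.89 and 65.6% ± 4.11, SD, n = 4 and 3; unadjusted exact permutation p = 0.171). It changed sign after thinning to 1000 UMIs, to 2.81 percentage points. The radial glia list was in 93.9% ± 1.16 of mutant and 93.3% ± 1.65 of control cycling barcodes. Haemoglobin and other erythroid RNA was uneven by library, in 11.3%, 10.0%, 9.47% and 27.9% of mutant cycling barcodes and 12.5%, 6.14% and 28.6% of control ones. By this share mutant 17 and control 16 were apart from the rest in both kinds of barcode (26.4% and 29.1% of other barcodes). By summed level mutant 17 was not apart, with 2399 CPM in cycling barcodes against 3334 CPM in mutant 12. In other barcodes it had 1676 CPM, against 1895 to 2408 CPM in mutants 10, 11 and 12. Control 16 was the highest control by summed level in both (1902 and 2911 CPM). The ratio of summed S phase to summed G2 and M phase CPM was 0.515, 0.495, 0.496 and 0.459 in mutants and 0.530, 0.481 and 0.617 in controls, which overlap.

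Mutant against control within the cycling barcodes gave 0 of 7916 genes (0%) at an edgeR adjusted p under 0.05. Levels from here on are CPM after TMM normalisation of the summed cycling barcodes. At an unadjusted p under 0.05, edgeR gave 469 genes (5.92%), 246 higher (3.11%) and 223 lower (2.82%) in mutants. DESeq2 also called 0 and had 224 at an unadjusted p under 0.05, and voom called 0 and had 656. In 485 genes (6.13%) the 4 mutants and the 3 controls did not overlap, with mutants higher in 241 (3.04%) and lower in 244 (3.08%). The number called was 12 without mutant 17, 6 without control 16, 5 without control 14 and 0 without any of the other 4 embryos. In counts simulated from these embryos with 200 genes changed, the edgeR test recovered 61.3% of genes changed 2-fold and 98.9% of those changed 4-fold (log2 of 1 and 2). Changes under 2-fold were thus often not detectable at this depth. With fewer changed genes the adjusted threshold is stricter, and the simulation did not place many UMIs of a gene in 1 barcode. The recovery in the real counts may be lower, so 0 called genes does not exclude larger changes.

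Ash1l (chr3:88950622-89079375, plus strand, mm10) was counted first as the targeted gene. It had 168, 154.6, 189 and 112 CPM in the cycling barcodes of mutants 10, 11, 12 and 17, against 168, 187 and 233 CPM in controls 14, 15 and 16. Mutant 17 was lowest and control 16 highest, and the groups overlapped (log2 fold change -0.34, SE 0.19; edgeR adjusted p = 0.845). In the other barcodes the log2 fold change was -0.39 (SE 0.13), and the difference between the 2 kinds of barcode was 0.02 (SE 0.16; edgeR adjusted p = 1). Where the UMIs lie relative to the deleted exons is not given in the sources used here, so the counts may lie outside the deleted part, where they check nothing. Emx1, after which the Cre is named, had 91.7 ± 14.0 CPM in mutant and 84.2 ± 10.0 CPM in control cycling barcodes. The labels do not say where the Cre was inserted. Esr1, an oestrogen receptor gene, was too low to test there, with 3, 5, 0 and 9 UMIs in mutants and 1, 0 and 0 in controls. In the other barcodes it rose in mutants by 3.39 on the log2 scale (SE 0.42, edgeR adjusted p = 0.00337). CreERT2 is a Cre joined to part of an oestrogen receptor, and whether its RNA was counted as Esr1 was not tested.

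Spr, which encodes sepiapterin reductase, the last enzyme of tetrahydrobiopterin synthesis, had the smallest p in cycling barcodes. Its level was 102, 101, 70.1 and 81.5 CPM in mutants 10, 11, 12 and 17, against 46.3, 20.99 and 31.7 CPM in controls 14, 15 and 16. Every mutant was above every control, as for 3.04% of all genes tested (log2 fold change 1.44, SE 0.28; edgeR adjusted p = 0.201). The UMIs were spread over many cells: 43 UMIs of mutant 10 lay in 35 barcodes, with at most 3 in any one. In the other barcodes Spr rose in mutants, with 56.0, 67.2, 68.0 and 93.8 CPM in mutants and 30.4, 28.5 and 28.2 CPM in controls (log2 fold change 1.30, SE 0.16; edgeR adjusted p = 0.00337). The difference between cycling and other barcodes was 0.13 (SE 0.30; edgeR adjusted p = 0.999). Spr lies on the chromosome of Emx1, at chr6:85130176-85137766 (minus strand, mm10), and Emx1 at chr6:85187438-85204462. The other barcodes gave 4 of 12734 genes (0.0314%) past the same threshold, the remaining 3 being Esr1, Npy (-1.26) and Lmo3 (-0.64).

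Another 3 genes among the 7 smallest p, Rbm15, Irf3 and Mvk, were higher in all mutants than in all controls, and 0 of these passed. They were picked by p in this same comparison, so their lack of overlap is a description and adds no support. Over all genes tested, 3.04% had the 4 mutants above the 3 controls. Rbm15, an RNA-binding adaptor of m6A methylation, had 66.3, 53.4, 67.5 and 30.3 CPM in mutants and 15.4, 17.2 and 28.2 CPM in controls (log2 fold change 1.38, SE 0.35; edgeR adjusted p = 0.645). Irf3, a factor of the interferon response, had 55.3 ± 12.0 CPM in mutants and 24.0 ± 2.79 CPM in controls. Mvk, mevalonate kinase of cholesterol synthesis, had 94.5 ± 16.6 CPM in mutants and 50.2 ± 4.68 CPM in controls. Their log2 fold changes in other barcodes were 0.22, 0.06 and 0.16. The differences between the 2 kinds of barcode did not pass either (edgeR adjusted p = 0.999 for each).

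**Figure D3:**
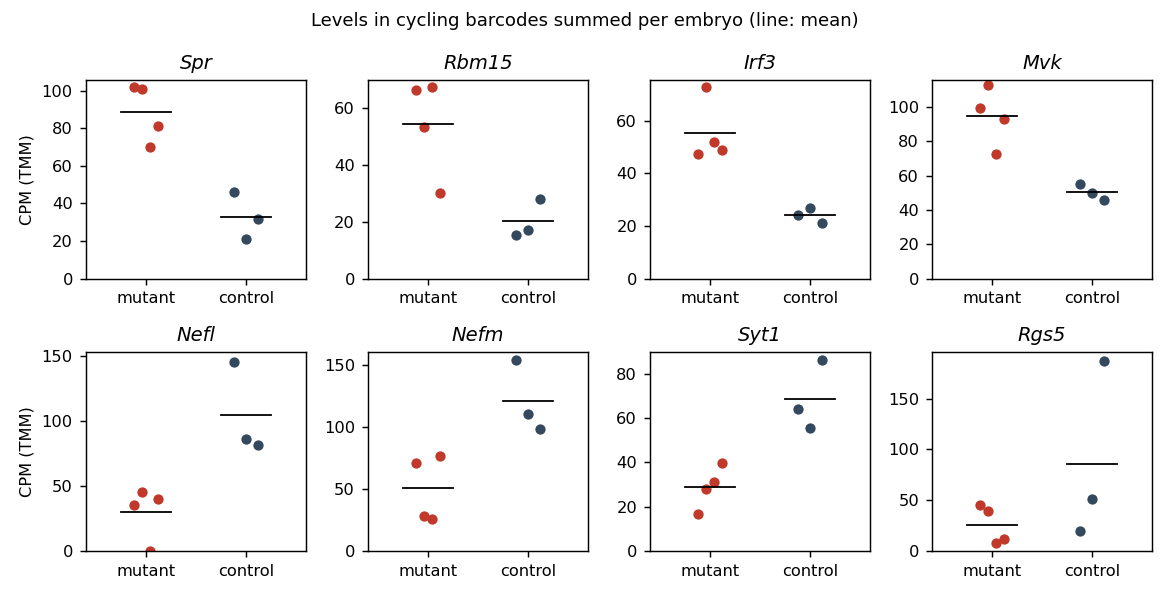
TMM-normalised CPM in the summed cycling barcodes of each mutant (red, left) and control (blue-grey, right) embryo for 4 genes with higher and 4 with lower mean levels in mutants; lines are means. Mutants and controls do not overlap for the first 7 genes and overlap for Rgs5, and no gene passed the adjusted threshold. The genes are among the 20 smallest p of this comparison, so the lack of overlap is a description (6.13% of all genes tested did not overlap).

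Among lists with more than 5 tested genes, the neuron list had the lowest median log2 fold change. Of 15 neuron genes tested, 14 had a negative log2 fold change (median -0.49), 8 of them with an unadjusted p under 0.05, and 0 passed the adjusted threshold in edgeR. Over all 7916 genes 50.2% were positive, the median was 0.00, and 2.82% were lower at an unadjusted p under 0.05 in edgeR. Among the 8 were Nefl, Syt1, Neurod2, Gap43, Stmn2 and Dcx. Dcx had 542 ± 102 CPM in mutants and 761 ± 107 CPM in controls (log2 fold change -0.49, SE 0.17). For Dcx the 4 mutants were below the 3 controls. For Stmn2, Gap43 and Neurod2, mutant 17 lay within the range of controls and mutants 10, 11 and 12 below it. The other barcodes showed the same list lower: 15 of 15 negative, median -0.27, 7 with an unadjusted p under 0.05. Over all genes of the other barcodes 10.3% had such a p, 4.77% higher and 5.54% lower in mutants. Summed over the list, unnormalised levels were 2261, 3028, 2429 and 4335 CPM in mutant cycling barcodes and 3790, 3792 and 4660 CPM in control ones, so mutant 17 lay among the controls. The list median was negative under all 20 alternative settings (-0.76 to -0.18). It was -0.18 when at least 5 cycle UMIs were required, with 11 of 15 genes negative and 1 at an unadjusted p under 0.05. It was -0.76 without mutant 17, with 14 of 15 negative, 12 at such a p and 3 passing the adjusted threshold in edgeR. The part of neuronal RNA from other cells in the same barcodes was not tested.

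In control 14 the level of some of these genes rested mostly on 1 barcode. Nefl, a neurofilament subunit, had 35.5, 45.0, 0 and 39.6 CPM in mutants and 146, 85.9 and 81.1 CPM in controls (log2 fold change -1.77, SE 0.39; edgeR adjusted p = 0.418), without overlap. In control 14, however, 62 of its 66 UMIs were in 1 barcode, and so were 61 of 70 UMIs of its partner Nefm. In controls 15 and 16 the Nefl UMIs were spread over 20 and 23 barcodes, with at most 7 of 45 and 12 of 46 in 1 barcode. With the highest barcode of each embryo left out of each gene, the log2 fold change was -1.30 for Nefl and -0.69 for Nefm. The annotated extents of Nefl (chr14:68083863-68089095, plus strand, mm10) and Nefm (chr14:68082590-68124846, minus strand) overlap, and strand use in counting is not given in the sources used here, so the 2 are uncertain as separate genes. Syt1, the calcium sensor of synaptic vesicles, had 16.6, 28.1, 31.2 and 39.6 CPM in mutants and 64.0, 55.3 and 86.3 CPM in controls, and kept -1.04 without the highest barcodes against -1.25 with them.

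**Figure D4:**
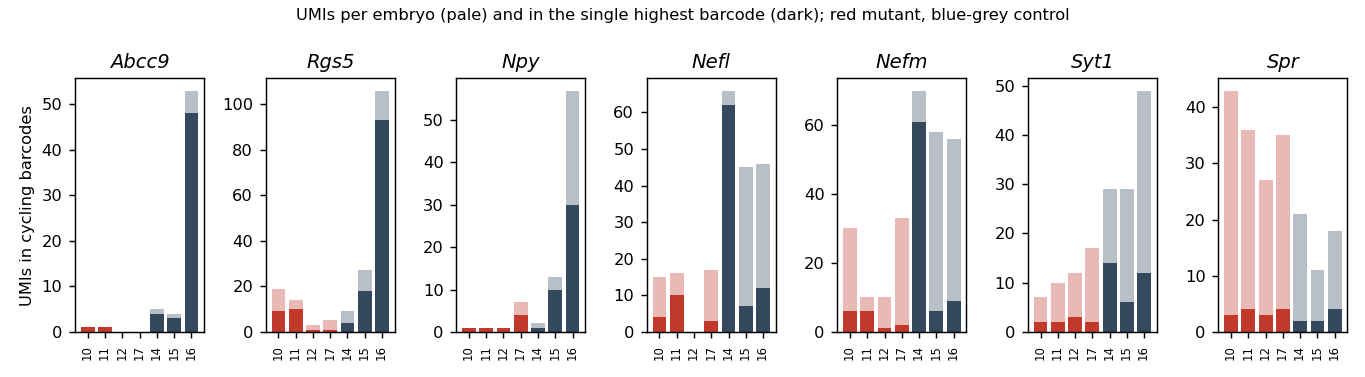
UMIs of 7 genes in the cycling barcodes of each embryo (pale bars, y axis) and in the single barcode with the most (dark bars), mutants in red and controls in blue-grey. Abcc9, Rgs5 and Npy in control 16 and Nefl and Nefm in control 14 stand mostly in 1 barcode, whereas Spr has at most 4 UMIs in any barcode.

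The genotype effect differed between cycling and other barcodes for 1 of 12297 genes (0.00813%) in edgeR, with 564 (4.59%) at an unadjusted p under 0.05, 221 with a positive difference (1.8%) and 343 with a negative one (2.79%). That gene was Abcc9, a potassium channel subunit of pericytes, with 1, 1, 0 and 0 UMIs in mutants and 5, 4 and 53 in controls (difference -5.24, SE 0.94; edgeR adjusted p = 0.0255). Of the 53 UMIs of control 16, 48 were in 1 barcode. Without control 16 the difference was -3.58 (edgeR adjusted p = 0.945). The difference was -5.63, -5.02 and -4.97 without mutants 11, 12 and 17, with an edgeR adjusted p of 0.0638, 0.128 and 0.0957. Without the highest barcode of each gene it was -7.46 (edgeR adjusted p = 1). Next came Nefl (-1.61; edgeR adjusted p = 0.0517) and the pericyte gene Rgs5 (-2.22; edgeR adjusted p = 0.0914). Rgs5 had 93 of its 106 UMIs of control 16 in 1 barcode, and Col4a1, a basement membrane collagen, 66 of 94. Mural and meningeal genes had at least 2 UMIs in 8.51%, 4.12%, 1.05% and 4.85% of mutant and 4.81%, 3.07% and 4.52% of control cycling barcodes. Their summed level there was 53.6 to 281 CPM in mutants and 87.4 to 443 CPM in controls.

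Cell cycle genes had no member past the threshold. Over all genes tested in cycling barcodes, 50.2% were positive and 6.13% did not overlap between genotypes. At an unadjusted p under 0.05 in edgeR, 3.11% of them were higher and 2.82% lower in mutants. Of 49 G2 and M phase genes tested, 40 had a positive log2 fold change (median 0.16), and 5 had an unadjusted p under 0.05: Tubb4b, Hjurp, Rangap1, Nek2 and G2e3. Rangap1, which activates the GTPase Ran, had 377, 374, 366 and 328 CPM in mutants and 278, 292 and 217 CPM in controls (0.46, SE 0.16; edgeR adjusted p = 0.81), without overlap. For the other 4 the groups overlapped. Without control 16, whose cycling barcodes had the lowest summed G2 and M phase level (8856 CPM, against 10152 to 13038 in the other embryos), 23 of 49 were positive and the median was -0.01. Of 43 S phase genes 20 were positive (median -0.01), with 0 at an unadjusted p under 0.05 in edgeR. Among cyclins, their kinases and inhibitors 12 of 21 were positive, and Cdk6 (0.53) and E2f3 (0.67) had an unadjusted p under 0.05. Of 19 genes of microcephaly and the spindle 10 were positive and 9 negative, with Kif14 (0.63) and Cit (0.73), both of cytokinesis, at an unadjusted p under 0.05.

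**Figure D5:**
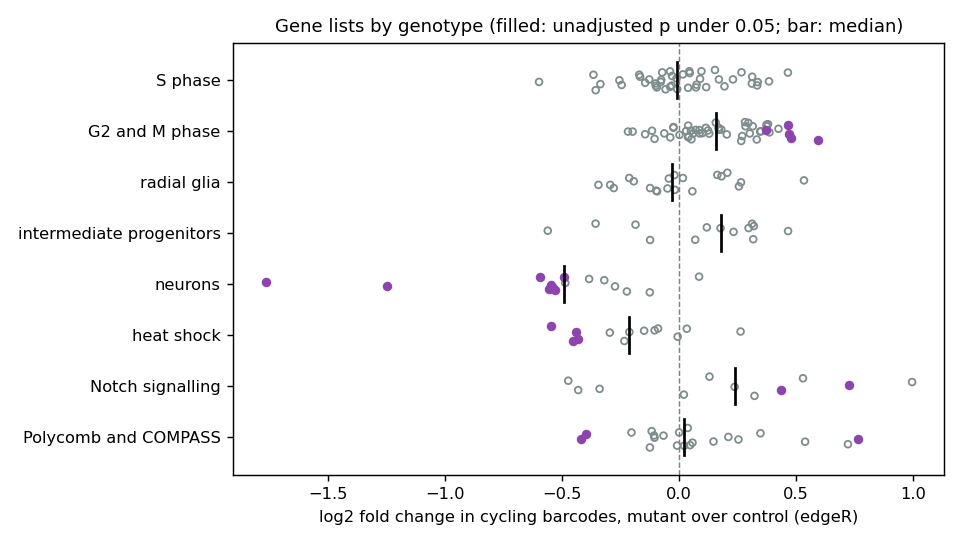
log2 fold change of mutant over control in cycling barcodes (x axis, edgeR), 1 point per gene in 8 lists; filled points have an unadjusted p under 0.05, black bars are list medians and the dashed line the median of all genes. The neuron list lies lowest with a median of -0.49, and the S phase and radial glia lists lie at -0.01 and -0.03.

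Progenitor lists showed no called change. For comparison, 50.2% of all genes tested in cycling barcodes were positive, and 6.13% did not overlap between genotypes. An unadjusted p under 0.05 in edgeR was found for 5.92% of them, so counts of 0 in the short lists below are near that share. Of 20 radial glia genes 8 were positive and 12 negative (median -0.03), with 0 at an unadjusted p under 0.05 in edgeR. Fabp7 had 4348 ± 533 CPM in mutants and 4737 ± 1081 CPM in controls, and Vim 1826 ± 198 CPM in mutants and 1889 ± 261 CPM in controls. Of 13 intermediate progenitor genes 9 were positive (median 0.18), again with 0 at an unadjusted p under 0.05, and the median was -0.03 when barcodes with ventral UMIs were included. Of 11 Notch signalling genes 8 were positive (median 0.24). Jag1, a Notch ligand, had 90.04, 75.9, 90.9 and 53.6 CPM in mutants and 50.7, 45.8 and 44.1 CPM in controls (0.73, SE 0.26; edgeR adjusted p = 0.81), without overlap. The receptor Notch2 (0.44) overlapped.

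No chromatin gene passed the adjusted threshold in edgeR. Of all genes tested in cycling barcodes, 5.92% had an unadjusted p under 0.05 in edgeR and 6.13% did not overlap between genotypes. In the H3K36 list 7 of 13 were positive and 6 negative. Psip1, a reader of H3K36 methylation, had 476, 427, 452 and 456 CPM in mutants and 569, 586 and 568 CPM in controls (-0.34, SE 0.15; edgeR adjusted p = 0.819), without overlap. Its log2 fold change in other barcodes was -0.37 (difference -0.01, SE 0.12). In the Polycomb and COMPASS list 12 of 21 were positive, and Phf19, Kmt2a and Ash2l had an unadjusted p under 0.05. Kmt2a, an H3K4 methyltransferase, had 155 ± 13.1 CPM in mutants and 207 ± 33.5 CPM in controls (-0.42, SE 0.18; edgeR adjusted p = 0.819), without overlap. Ezh2, the H3K27 methyltransferase, had 491 ± 58.8 CPM in mutants and 483 ± 62.7 CPM in controls. Phf19, a Polycomb accessory protein, had 49.1 ± 16.6 CPM in mutants and 29.3 ± 12.8 CPM in controls (log2 fold change 0.76, SE 0.35). Ash2l, a COMPASS core subunit, had 156, 118, 112 and 135 CPM in mutants and 181, 153 and 183 CPM in controls (-0.40, SE 0.19). For both genes the groups overlapped. Of 18 histone genes 10 were positive. Hist3h2a, an H2A gene, had a log2 fold change of 0.65 and Hist1h1b, a linker histone gene, of -0.48, both with an unadjusted p under 0.05 and overlapping groups. Of 10 p53 targets 5 were positive.

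Stress genes and blood RNA varied with library. Of 13 heat shock genes 11 were negative (median -0.21), and Hspa1a, Hspa1b, Hspa5 and Hsp90aa1 had an unadjusted p under 0.05 in edgeR. Of all genes tested in cycling barcodes 5.92% had such a p, 3.11% higher and 2.82% lower in mutants, and 6.13% did not overlap between genotypes. Hspa5, the chaperone of the endoplasmic reticulum, had 846, 857, 1098 and 701 CPM in mutants and 695, 1189 and 1704 CPM in controls, so control 14 lay below every mutant. Control 14 was also below every mutant for Hspa1a (179 CPM) and Hsp90aa1 (459 CPM), and control 16 was the highest embryo for all 4 genes. Without control 16, 9 of the 13 heat shock genes were negative (median -0.11), with 0 at an unadjusted p under 0.05 in edgeR. In the other barcodes 14 of 14 were negative (median -0.24), 5 of them with an unadjusted p under 0.05 in edgeR. Of all genes there 5.54% were lower at such a p. Among 14 immediate early genes 7 were positive and 7 negative, and Dusp1, Jun, Fosb and Ier2 had an unadjusted p under 0.05. Dusp1, a phosphatase of MAP kinases, had 30.8, 22.5, 67.5 and 37.3 CPM in mutants and 121, 89.7 and 59.9 CPM in controls (-1.17, SE 0.31; edgeR adjusted p = 0.645). Mutant 12 lay above control 16, and the other mutants lay below every control. In the other barcodes its log2 fold change was -0.58 (SE 0.16; edgeR adjusted p = 0.31). Jun had 1073, 905, 1272 and 855 CPM in mutants and 1317, 1398 and 1435 CPM in controls (-0.43, SE 0.16; edgeR adjusted p = 0.81), without overlap, while Fosb (0.76) and Ier2 (0.51) were positive and overlapped between the groups. The 4 haemoglobin genes were positive (median 0.99), and 742 of 971 Hbb-bs UMIs of mutant 12 lay in 1 barcode. Without high-UMI barcodes the erythroid median was -0.35.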

How the data were processed

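The authors deposited 1 table of whole-number UMI counts per embryo (genes by barcodes), not normalised. Reads were aligned with STAR to mm10, per the submitters' processing notes; the annotation, strand setting, UMI collapsing and barcode rule were not given in the sources used here. Columns of other samples numbered 0. Genotypes came from the labels, and replicates are single embryos.

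Barcodes passing the rule were summed per embryo. The quasi-likelihood test of edgeR 4.0.16 (R 4.3.3; TMM, filterByExpr, Benjamini-Hochberg adjusted p under 0.05, two-sided) compared genotypes in cycling and in other barcodes, and, with embryo as a fixed term, the difference between both. Alternatives used DESeq2 1.42.0, limma 3.58.1 (voom) and other filters. Shares were compared by exact permutation over 35 splits. Summaries and figures used Python 3.11.15 and SciPy 1.17.1. The tests were checked on simulated counts with 200 changed genes. No doublet caller was run. Between embryos of 1 genotype the chi-square per gene was 1.84 to 3.14, so no pair agreed within sampling noise. The p-values measure only the spread between embryos of 1 litter. Gene coordinates are from GENCODE for mm10, by symbol.

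The members and gene lists were chosen with earlier results of these data known. Named genes were the 20 smallest p, and from each list up to 4 with the highest level and those with an unadjusted p under 0.05; against other barcodes, the 20 highest and 10 lowest ratios. Lineage genes such as Pax6, Eomes, Egfr, Olig1, Olig2, Hes5, Hopx and Cdkn1c were named after their values were seen. Some genes are not reported here.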

Additional observations from a re-analysis of the deposited data

Results flagged for a closer look

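In 69 groups of 4 mutant values, 4 had 1 embryo far from the other 3 by the size of the gap against the whole range of the group. Chance flags about 1 in 20 groups. Mutant 10 stood apart in the share of cycling barcodes with oligodendrocyte precursor markers (18.4%, 13.5%, 13.2% and 12.7% in mutants 10, 11, 12 and 17; gap 0.860 of the range), and control 14 was higher still (22.1%). Mutant 17 stood apart in the share with erythroid markers (27.9%; gap 0.898), a level also found in control 16 (28.6%). Mutant 17 was also apart in Gap43, a growth cone protein (305 CPM, against 106 to 138 CPM in mutants 10, 11 and 12; gap 0.842). Mutant 12 was apart in Sp8, a zinc finger factor (28.5 CPM, against 5.62 to 9.48 CPM; gap 0.832). The genotype effect on Abcc9 differed between cycling and other barcodes by the test of the difference itself (-5.24 on the log2 scale), with 48 of 53 UMIs of control 16 in 1 barcode.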

How the results depend on the processing

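No paired analysis was possible because mutants and controls share no replicate number. Genes called in cycling barcodes numbered 0; they were 16 with no low-count filter and 1 (Spr) with any number of ventral UMIs, and ranged from 0 to 12 when embryos were left out in turn. Without mutant 17 there were 12, among them Spr and the neuronal genes Stmn2, Tubb3, Gap43 and Nefm; without control 16 there were 6, among them Nefl and 3 haemoglobin genes, and without control 14 there were 5, among them Spr, Npy and Rgs5. The count of differences between cycling and other barcodes was 0 with at least 10 counts in every sum and 0 with the highest barcodes left out (the alternative chosen after seeing the data), and 0 to 5 without single embryos. The share of cycling barcodes, mutant minus control, was -0.0598 to 0.745 percentage points without single embryos. Marker shares, mutant minus control, ranged without single embryos from -0.246 to 1.41 for radial glia, -0.761 to 2.88 for astroglia, -3.83 to 1.45 for oligodendrocyte precursors, -0.687 to 0.0234 for microglia and macrophages, -0.794 to 1.69 for mural and meningeal and -5.90 to 5.35 for erythroid genes. After thinning, the intermediate progenitor share was 2.81 and the astroglia share -0.27; with 3 UMIs of a list the astroglia share was -1.93 and the mural share -0.62. Of 1145 values of 59 genes under alternatives 13 changed sign. These were Hba-a1 (-0.28 with 2 cycle UMIs, -0.087 with any ventral UMIs, -0.52 without high-UMI barcodes, -0.36 without the highest barcode), Hba-a2 (-0.097, -0.36 and -0.037 under the last 3), Hbb-bs (-0.076) and Hbb-bt (-0.34) without high-UMI barcodes, Hbb-bt (-0.38) without the highest barcode, and Hspa1a (0.024), Hspa1b (0.051) and Kif14 (-0.013) without high-UMI barcodes. Without the highest barcode the difference between cycling and other barcodes for Hbb-bs also changed sign (-0.14). The cause was not tested, except that leaving out barcodes leaves fewer UMIs. Spr was positive under every alternative run (1.14 to 1.73; edgeR adjusted p 0.00144 to 0.913). Depth limits what can be said of genes near the minimum level.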

Other observations

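Of the cell types outside the neural lineage, erythroid genes had the highest shares, with at least 2 UMIs in 9.47% to 27.9% of mutant and 6.14% to 28.6% of control cycling barcodes. At least 2 UMIs of microglia and macrophage genes were in 0% to 1.21% of mutant and 0.503% to 1.92% of control cycling barcodes, of endothelial genes in 0.526% to 1.82% and 0.877% to 4.02%, and of choroid plexus and ependyma genes in 0.588% to 2.11% and 0.962% to 2.01%. Markers of ventral progenitors that the rule did not use, such as Sp8, were in 12.1%, 7.65%, 8.42% and 6.67% of mutant and 16.3%, 8.77% and 10.0% of control cycling barcodes, and in 4.49% to 10.1% of other barcodes. Within embryos the share was higher in cycling than in other barcodes in 6 of 7. Among barcodes of at least 1000 UMIs, thinned to 1000 UMIs, it was 0.800% to 2.94% in mutant and 1.08% to 4.07% in control cycling barcodes. The other barcodes had 2.01% to 5.94%, and the share was lower in cycling barcodes in 5 of 7 embryos. Npy, a neuropeptide that fell in the other barcodes of mutants (log2 fold change -1.26), had 1, 1, 1 and 7 UMIs in mutant and 2, 13 and 57 in control cycling barcodes and was too low to test. Of the 57 UMIs of control 16, 30 were in 1 barcode.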
